A study of Mus musculus with 10 samples.

Results

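The 9 genes of the serpin family described here were followed through 4 comparisons in C2C12 cells, a mouse myoblast line that forms multinucleated myotubes when serum is withdrawn. They are 7 genes of clade B, Serpinb2, Serpinb1a, Serpinb6a, Serpinb6b, Serpinb8, Serpinb9 and Serpinb9b, together with Serpinf1 and Serpinh1. They are 9 of the 63 genes whose symbol starts with Serpin, and 9 of the 23417 genes of each Huwe1 table. The genes were chosen by their FPKM in the same columns, with earlier results of these data known, among them the Serpinb2 level of Huwe1 knockdown myoblasts, so that all levels and ratios below are descriptions and carry no test. The proteins of clade B lack a classical signal peptide and mostly act inside the cell. The Serpinf1 protein is secreted, while the Serpinh1 protein is retained in the endoplasmic reticulum and is not a secreted serpin.

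Serpins are mostly single-use inhibitors of proteases. The target protease cuts an exposed loop of the serpin, the loop inserts into the body of the molecule, and the protease is trapped in an inactive complex. Some members, Serpinf1 and Serpinh1 among them, keep the fold without inhibiting a protease. In mice the clade B genes have multiplied into families of close relatives that lie side by side on chromosomes 1 and 13. Clade B serpins are best known from leukocytes and epithelia, where they protect the cell from its own granule and lysosomal proteases, whereas Serpinh1 is known from every cell that makes collagen.

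Huwe1 is a ubiquitin ligase and USP10 a deubiquitinase, and the study asked how the level of TBP, the TATA-box binding protein of the basal transcription machinery, is controlled in muscle differentiation. The libraries show gene expression with Huwe1 depleted or USP10 raised. The day 0 comparison set 2 Huwe1 knockdown libraries of cells in growth medium with 10% FBS against 1 library labelled wildtype. The day 6 comparison did the same after 6 days in medium with 2% horse serum, again with a wildtype control and with the same 2 hairpins, 1 in each knockdown library. The day 8 comparison used myotubes after 8 days in differentiation medium, with 2 other hairpins and a control labelled as carrying a non-targeting RNA. The USP10 comparison set 1 library of cells carrying a USP10 cDNA under the EF1a promoter, a stable cell line by the study's text, against 1 control at day 6. The study's methods list the hairpins of the day 8 labels only, delivered by lentivirus with puromycin selection, in the day 0 and day 6 cells as myoblasts and in the day 8 cells as myotubes from day 4 of differentiation on, and the hairpin sequences in the labels of day 0 and day 6 differ from them. The day 8 control is named as wild type in the header of its table, against its label. In each Huwe1 table the 2 knockdown libraries are pooled into 1 column, so every condition has 1 value per gene, and the spread between replicates is unknown for all differences given.

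The windows before the start sites of 4 genes are shown because Serpinb9b and Serpinb9 are neighbours with unlike ratios in the day 6 tables, and because Serpinb2 and Serpinb8 share the other cluster of the family. They are the 250 bases upstream of the RefSeq transcript start in GRCm38.p6, all on the plus strand and 5′ to 3′. They cover chr1:107511173-107511422 for Serpinb2, chr1:107589756-107590005 for Serpinb8, chr13:33004291-33004540 for Serpinb9 and chr13:33027164-33027413 for Serpinb9b, and none of them overlaps an annotated exon. Capitals mark matches to 3 motifs searched on both strands, TGANTCA of the AP-1 factors, CANNTG known as the E-box, which myogenic bHLH factors bind, and the TATA box TATAAA.
Serpinb2: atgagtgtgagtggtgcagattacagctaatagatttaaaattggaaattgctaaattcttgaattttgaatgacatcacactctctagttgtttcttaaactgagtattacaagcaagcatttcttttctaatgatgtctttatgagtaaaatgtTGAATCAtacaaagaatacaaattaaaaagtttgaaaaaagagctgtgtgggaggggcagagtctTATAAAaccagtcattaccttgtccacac
Serpinb8: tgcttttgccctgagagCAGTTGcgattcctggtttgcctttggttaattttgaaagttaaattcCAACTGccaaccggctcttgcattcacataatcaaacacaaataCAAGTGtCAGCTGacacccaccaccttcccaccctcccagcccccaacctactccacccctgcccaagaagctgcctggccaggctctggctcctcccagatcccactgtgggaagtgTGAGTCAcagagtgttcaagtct
Serpinb9: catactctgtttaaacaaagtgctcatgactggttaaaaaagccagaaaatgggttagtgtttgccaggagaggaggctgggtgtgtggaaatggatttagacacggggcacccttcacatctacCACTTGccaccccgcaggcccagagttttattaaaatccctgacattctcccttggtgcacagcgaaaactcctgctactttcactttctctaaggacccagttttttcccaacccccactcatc
Serpinb9b: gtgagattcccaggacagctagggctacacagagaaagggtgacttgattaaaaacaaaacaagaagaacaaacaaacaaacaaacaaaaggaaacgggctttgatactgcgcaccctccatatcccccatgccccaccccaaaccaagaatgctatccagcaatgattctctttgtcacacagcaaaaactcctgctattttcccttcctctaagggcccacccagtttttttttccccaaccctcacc

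The Serpinb2 window held 1 AP-1 match, TGAATCA, whose first base lies 94 bases before the start, and 1 TATA box at 29 bases. The Serpinb8 window held 1 AP-1 match, TGAGTCA, at 23 bases, and 4 E-boxes. Of all 32851 promoters in the table, 6.75% held the AP-1 motif in a window of this length, 12.4% the TATA box and 66.2% an E-box. The Serpinb9 window held 1 E-box and the Serpinb9b window none of the 3 motifs. These neighbouring windows were 56.2% identical over their alignment, against 42.1% to 47.3% for the other pairs of the 4. Among the members, 8 were matched in the promoter table. A match is a description of the letters and not a measured binding site.

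Levels are given in FPKM, fragments scaled to transcript length and to library size, so that they can be compared between genes per length. Ratios are log2 ratios of treated to control after 0.01 was added to every FPKM, which understates the change of low genes, and a 2-fold difference is a log2 ratio of 1. A gene was kept where 1 or both of the columns compared held 1 FPKM or more. From the lowest FPKM steps the control libraries were estimated at between 7780000 fragments, in the USP10 table, and 29900000 fragments, at day 6 in the Huwe1 table. No estimate was made for the pooled columns. Huwe1 was lower in each knockdown column, with log2 ratios of -1.33 at day 0, -0.68 at day 6 and -0.75 at day 8. Usp10 was at 10.3 FPKM in its control and at 38.3 FPKM in the overexpressing cells, although whether the table counts the introduced cDNA was not tested. It was also at 13.2 FPKM in the day 6 control and at 35.4 FPKM in the Huwe1 knockdown, and at 68.5 FPKM in day 0 control cells. Muscle markers were present in the differentiated controls, their 8 genes summing to 12806 FPKM at day 6 and 10839 FPKM at day 8.

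At day 0 all 9 genes were kept, and 2 of them, Serpinb2 and Serpinb9b, were at least 2-fold higher in the knockdown, where 1.90% of all 10874 genes kept were. None was at least 2-fold lower, against 1.69% of all genes. At day 6, 3 of the 8 genes kept were at least 2-fold higher, Serpinb9b, Serpinb8 and Serpinb6b, against 17.6% of 11695 genes. Serpinb1a was the 1 gene at least 2-fold lower, against 13.4% of all genes. With 1 FPKM required in both columns, 6 genes were kept at day 6 and 1, Serpinb6b, was higher, beside 12.5% of all genes. The controls of Serpinb9b and Serpinb8 lay under 1 FPKM. In day 8 myotubes 0 of 7 genes kept were at least 2-fold higher, against 7.89% of 11755 genes, and 1, Serpinb6b, was at least 2-fold lower, against 10.0%. With USP10 overexpression 3 of 8 were at least 2-fold higher, again Serpinb9b, Serpinb6b and Serpinb8, against 9.70% of 11482 genes, and 0 were at least 2-fold lower, against 10.0%. The median log2 ratio of the genes kept was 0.48 at day 0, 0.43 at day 6, -0.32 at day 8 and 0.18 with USP10. The same median over all genes lay between -0.01 and 0.05. The set was chosen with these values known, so nothing is read from its shares against those of all genes.

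**Figure D1:**
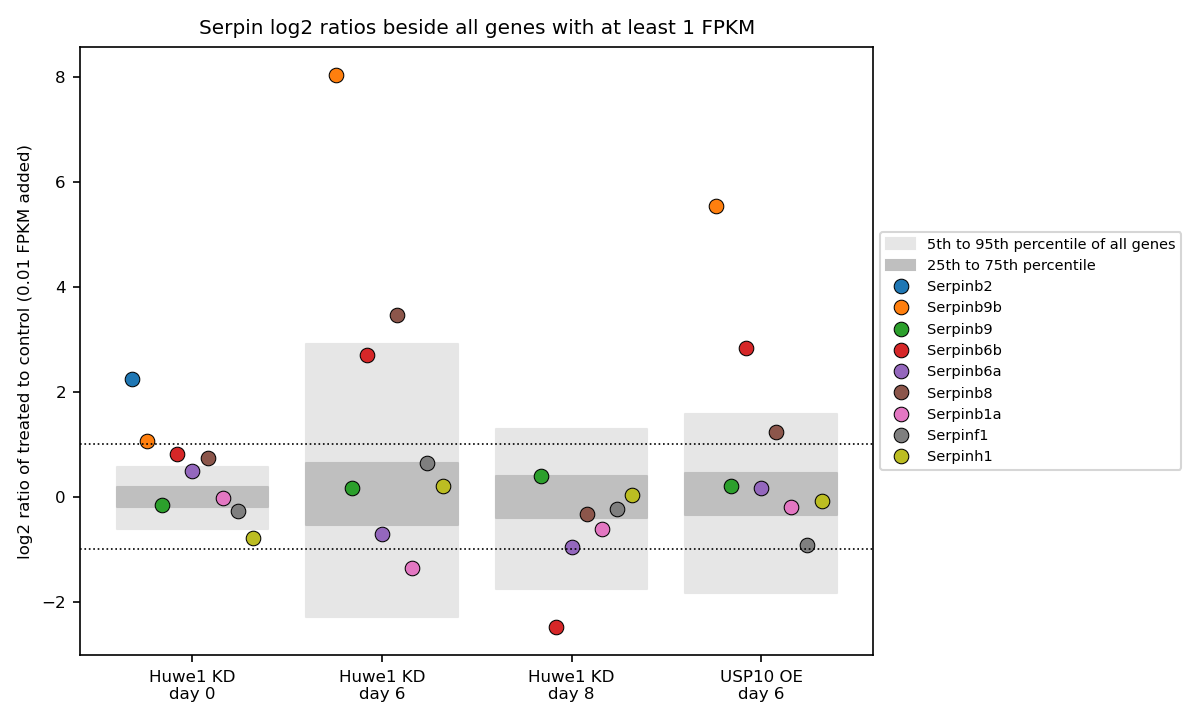
Log2 ratios of treated to control FPKM (0.01 added) for the serpin genes in 4 comparisons, 1 point per gene with at least 1 FPKM in a column, over grey bands of the central ranges of all genes kept; dotted lines mark 2-fold. Serpinb9b stands at 8.04 at day 6 and 5.54 with USP10, above the bands, and Serpinb2 at 2.24 at day 0, while Serpinb6b lies at -2.49 in day 8 myotubes (KD, knockdown; OE, overexpression).

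Serpinb2, also known as plasminogen activator inhibitor 2, inhibits urokinase and is found mostly inside cells. It lies on chromosome 1 from 107511423 to 107525600 in mm10. It was at 2.88 FPKM in day 0 control cells and 13.6 FPKM in the knockdown, a log2 ratio of 2.24. At day 6 it was listed at 0 in the control and at 0.530 FPKM in the knockdown. With USP10 it was listed at 0 in the control and at 0.423 FPKM in the overexpressing cells, and in day 8 myotubes it was listed at 0 in both columns. Serpinb2 was thus detected in both columns of growth medium cells and, after differentiation, in the Huwe1 knockdown and USP10 columns of day 6 alone. Neither of the 2 day 6 values reaches 1 FPKM, and no fold is given against a column listed at 0. One fragment of Serpinb2 is worth about 0.0168 FPKM in the day 6 control of the Huwe1 table and 0.0644 FPKM in the control of the USP10 table, and the USP10 value stands for about 23.3 fragments. The 3 genes outside the family whose log2(FPKM + 1) followed Serpinb2 most closely over the 8 columns, among 8371 genes that reached 10 FPKM, were Ndufaf6, Ccz1 and Itgb7, each with a Pearson r of 0.98. Itgb7, an integrin beta chain, was at 15.1 FPKM in day 0 control cells and 37.9 FPKM in the knockdown, and at 1.38 FPKM or less elsewhere. The other 2 moved far less at day 0, Ndufaf6 from 7.96 to 10.8 FPKM and Ccz1 from 56.6 to 67.3 FPKM. Since Serpinb2 was under 1 FPKM in every later column, these values of r rest mainly on the day 0 columns.

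Serpinb9 and Serpinb9b are neighbours on chromosome 13, at 33004541 to 33017955 and 33027414 to 33040558. Their open reading frames are 85.3% identical over the alignment. The Serpinb9 protein inhibits granzyme B and is the relative of human proteinase inhibitor 9, and Serpinb9b is a close mouse relative that inhibits granzyme M. Only 0.380% of the 50-base windows of the Serpinb9 transcripts and 0.499% of those of Serpinb9b occur in another gene, so most reads could tell them apart.

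Serpinb9b was at 10.8 FPKM in day 0 control cells and 22.6 FPKM in the knockdown, a log2 ratio of 1.07. At day 6 it was at 0.247 FPKM in the control and at 67.7 FPKM in the knockdown, a log2 ratio of 8.04. With USP10 it was at 2.51 FPKM in the control and at 116.9 FPKM in the overexpressing cells, a log2 ratio of 5.54. Both treated day 6 columns thus lay above either column of growth medium cells, and both day 6 controls below them. In day 8 myotubes it was at 0.911 FPKM in the control and at 0.201 FPKM in the knockdown, the opposite direction, with both values under 1 FPKM. The low controls rest on few fragments, about 24.01 in the day 6 control and 63.5 in the control of the USP10 table, against about 10475 in the USP10 library. The size of the day 6 ratio depends on which day 6 control is used, since these controls differed 9.79-fold for Serpinb9b with 0.01 FPKM added. The log2 ratio of the knockdown is 4.75 against the control of the USP10 table, and 5.78 when 1 FPKM is added in place of 0.01, while the USP10 ratio is 8.83 against the other day 6 control. Genes with the most similar pattern over the 8 columns were Ifi203, an interferon-inducible gene, with r of 0.99, Csn3, a casein, with 0.98, and the transcription factor gene Osr1 with 0.98. The 8 columns come from tables normalized separately and share controls and cell line, so these values of r are descriptions.

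Serpinb9 itself was nearly level. It was at 4.19 and 3.76 FPKM at day 0, control first, at 6.93 and 7.76 FPKM at day 6, at 6.11 and 8.07 FPKM at day 8, and at 7.94 and 9.11 FPKM in the USP10 table. Its log2 ratios lay between -0.16 and 0.40, inside the 2-fold limits in every comparison, while its neighbour Serpinb9b moved by over 5 log2 units in the day 6 tables.

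**Figure D2:**
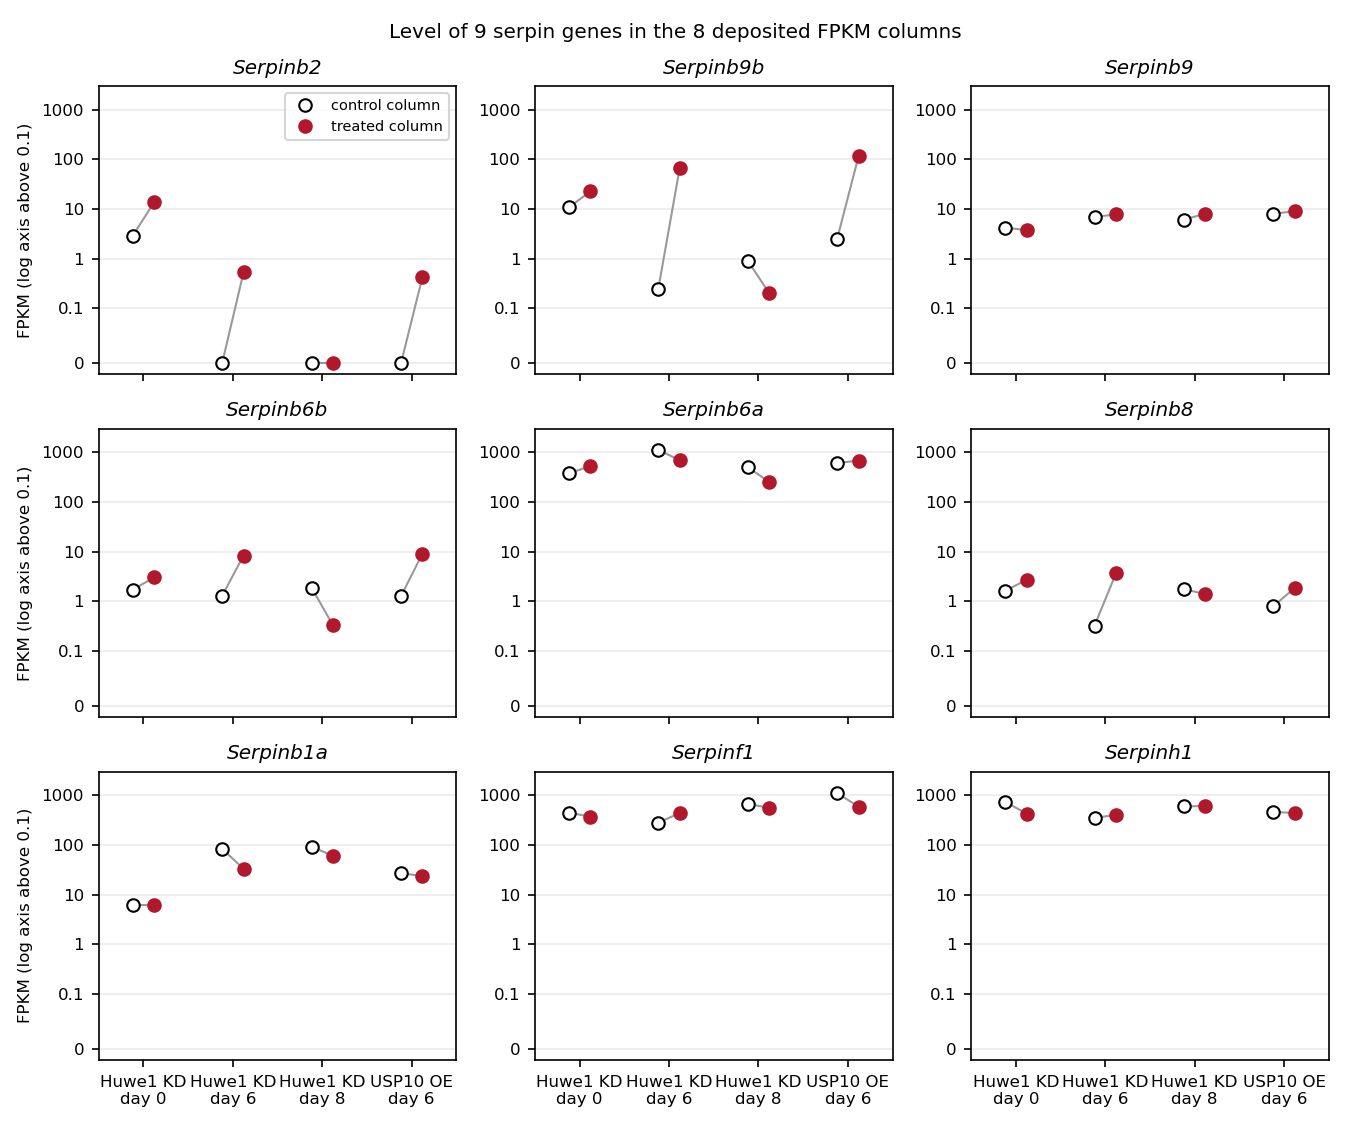
FPKM of each of the 9 serpin genes in the control (open) and treated (red) column of the 4 comparisons, on an axis that is logarithmic above 0.1 FPKM and reaches 0; each point is 1 deposited value, without error bars since none are given (KD, knockdown; OE, overexpression). Serpinb9b goes from 0.247 to 67.7 FPKM at day 6, Serpinb9 stays between 3.76 and 9.11 FPKM, and Serpinb2 is listed at 0 in 4 columns.

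Serpinb6a and Serpinb6b also form a pair of relatives, with open reading frames 85.7% identical, and lie at 33917918 to 34002794 and 32965513 to 32979037 on chromosome 13. The Serpinb6a protein inhibits cathepsin G and is widely expressed, and Serpinb6b inhibits granzyme A. Of their 50-base windows, 2.68% for Serpinb6a and 3.12% for Serpinb6b occur in another gene, most of them in Serpinb6c. Serpinb6a was the most abundant clade B gene, between 257 and 1130.35 FPKM over the 8 columns. It was at 379.9 FPKM in day 0 control cells and 531 FPKM in the knockdown, a log2 ratio of 0.48. At day 6 it was at 1130.35 and 696 FPKM, a log2 ratio of -0.70, and at day 8 at 500.03 and 257 FPKM, a log2 ratio of -0.96. With USP10 it was at 612 FPKM in the control and at 686 FPKM in the overexpressing cells. All 4 of these ratios lie within 2-fold. The day 6 directions rest on the control, since with the day 6 controls exchanged the log2 ratios are 0.18 for the knockdown and -0.72 for USP10.

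Serpinb6b was a low gene, and moved further. It was at 1.72 FPKM in day 0 control cells and 3.04 FPKM in the knockdown, a log2 ratio of 0.82. At day 6 it was at 1.29 FPKM in the control and at 8.39 FPKM in the knockdown, a log2 ratio of 2.69. The USP10 table gave 1.27 FPKM in the control and at 9.10 FPKM in the overexpressing cells, a log2 ratio of 2.83. With 1 FPKM added in place of 0.01 these log2 ratios are 2.04 and 2.15. The day 6 values were close to each other on both sides, and the 2 day 6 controls of Serpinb6b differed by a log2 ratio of only -0.02. In myotubes of day 8 it was at 1.90 FPKM in the control and at 0.330 FPKM in the knockdown, a log2 ratio of -2.49 that is -1.12 with 1 FPKM added and is not counted where 1 FPKM is required in both columns. Serpinb6b was therefore higher in the knockdown at day 6 and lower in the knockdown at day 8, a difference that was not tested.

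Serpinb8, whose protein inhibits furin, lies on chromosome 1 from 107590006 to 107608978, close to Serpinb2. It was at 1.63 FPKM in day 0 control cells and 2.72 FPKM in the knockdown, a log2 ratio of 0.74. At day 6 it was at 0.326 FPKM in the control and at 3.67 FPKM in the knockdown, 10.97-fold higher with 0.01 FPKM added, or a log2 ratio of 3.46. This log2 ratio is 1.82 with 1 FPKM added and 2.19 against the control of the USP10 table. With USP10 it was at 0.796 and 1.89 FPKM, a log2 ratio of 1.23 that is 0.68 when 1 FPKM is added in place of 0.01 and 2.50 against the other day 6 control. At day 8 it was at 1.76 and 1.40 FPKM. The gene was low in every column, its lowest value being that of the day 6 control, about 44.6 fragments.

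Serpinb1a, an inhibitor of neutrophil elastase, cathepsin G and proteinase 3, lies on chromosome 13 from 32842092 to 32851185. It was at 6.20 FPKM in day 0 control cells and 6.08 FPKM in the knockdown. At day 6 it was at 83.8 FPKM in the control and at 32.9 FPKM in the knockdown, a log2 ratio of -1.35, and at day 8 at 91.96 and 60.1 FPKM, a log2 ratio of -0.61. With USP10 it was at 26.9 FPKM in the control and at 23.6 FPKM in the overexpressing cells. Every differentiated column lay above both columns of growth medium cells. The day 6 decrease rests on its control, since against the day 6 control of the USP10 table the log2 ratio of the knockdown turns to 0.29. Of its 50-base windows, 3.42% occur in another gene, most of them in Serpinb1c.

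Serpinf1 encodes pigment epithelium-derived factor, a secreted protein that restrains blood vessel growth and does not inhibit proteases. It lies on chromosome 11 from 75410029 to 75422623. It was at 445 FPKM in day 0 control cells and 371 FPKM in the knockdown, and at 279.5 FPKM and 439 FPKM at day 6, a log2 ratio of 0.65. It was at 660.4 and 561 FPKM at day 8, and at 1107 FPKM in the control and at 588 FPKM in the overexpressing cells of the USP10 table, a log2 ratio of -0.91. None of these passed 2-fold, and the 2 day 6 tables go opposite ways. Their controls differed 3.96-fold, more than either treated column differed from its own control, and with the controls exchanged the log2 ratios are -1.34 for the knockdown and 1.07 for USP10. The gene for a Serpinf1 receptor, Pnpla2, better known as adipose triglyceride lipase, was at 33.2 FPKM in the day 6 control and at 21.0 FPKM in the knockdown, and did not pass 2-fold in any of the 4 comparisons.

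Serpinh1 encodes HSP47, the collagen-specific chaperone. It lies on chromosome 7 from 99345375 to 99353239. It was at 734 FPKM in day 0 control cells and 428 FPKM in the knockdown, a log2 ratio of -0.78, the lowest of the 9 genes at day 0. Its ratios lay within 2-fold in every comparison. It was at 349 and 403 FPKM at day 6, 594 and 608 FPKM at day 8, and 462 and 438 FPKM with USP10, control first. Serpinh1 was among the 3 abundant members, with Serpinb6a and Serpinf1, which stayed at 257 FPKM or more in all 8 columns, whereas the other 6 reached at most 116.9 FPKM.

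The control columns give the levels across differentiation, though they come from tables normalized separately. From day 0 to day 6, 2 of the 9 genes were at least 2-fold higher, Serpinb1a by 13.5-fold and Serpinb6a by 2.98-fold, against 21.5% of 11653 genes. At least 2-fold lower were 4, Serpinb2, listed at 0 at day 6, Serpinb9b by 41.9-fold, Serpinb8 by 4.88-fold and Serpinh1 by 2.11-fold, against 23.2% of all genes. From day 6 to day 8, Serpinb8 was 5.27-fold and Serpinf1 2.36-fold higher, and Serpinb6a 2.26-fold lower, among 7 genes kept. The background there was 13.8% higher and 5.81% lower of 11525 genes. These folds use the day 6 control of the Huwe1 table. In the control of the USP10 table Serpinf1 was at 1107 FPKM, above its 445 FPKM at day 0 and 660.4 FPKM at day 8. Both of its directions turn there. Serpinb6a, at 612 FPKM, was then within 2-fold of day 0 and day 8, and Serpinh1, at 462 FPKM, of day 0. Serpinb9b was at 2.51 FPKM, against 10.8 FPKM at day 0. Serpinb1a, Serpinb2, Serpinb8 and Serpinb9b kept their directions from day 0 to day 6. The headers of the 2 day 6 tables name the same control file, yet the columns differ in depth and values. Of 7 genes kept, Serpinb9b and Serpinf1 were at least 2-fold higher and Serpinb1a 3.12-fold lower in the control of the USP10 table, where 11.2% of 11459 genes were higher and 8.66% lower. This is the only gauge in these tables of how far control columns of 1 day differ. In bulk RNA, fewer cells of a type and less RNA per cell cannot be told apart.

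**Figure D3:**
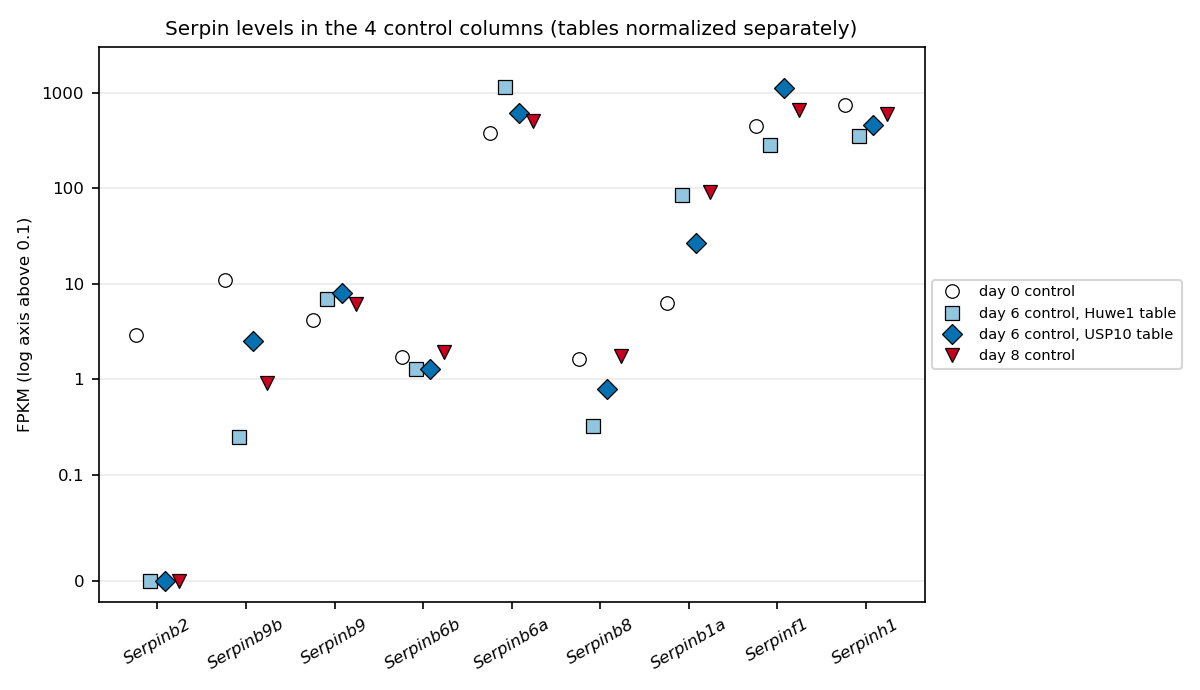
FPKM of the 9 serpin genes in the control columns of day 0, day 6 (both tables) and day 8, on an axis that is logarithmic above 0.1 FPKM and reaches 0; each marker is 1 deposited value. Serpinb1a is at 6.20 FPKM at day 0 and at 26.9 FPKM or more later, Serpinb9b has its highest control value at day 0, and the 2 day 6 controls of Serpinf1 lie at 279.5 and 1107 FPKM.

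The clade B genes form 2 clusters, 12 genes over 748 kb on chromosome 1 and 15 genes over 1161 kb on chromosome 13. At day 6, 11 genes of the chromosome 13 cluster were kept, of which 2 were at least 2-fold higher in the knockdown, Serpinb6b and Serpinb9b. At least 2-fold lower were 7, Serpinb1a, Serpinb1b, Serpinb1c, Serpinb9c, Serpinb9d, Serpinb9e and Serpinb9g. The shares of all genes were 17.6% higher and 13.4% lower. Against the control of the USP10 table the same 2 genes were higher and 5 of 10 lower, beside 12.95% and 9.92% of all genes. The 5 include Serpinb6c and leave out Serpinb1a, Serpinb9d and Serpinb9e. Serpinb9b and its relative Serpinb9c, 76.2% identical in open reading frame, went opposite ways, Serpinb9c being at 14.7 FPKM in the control and at 1.48 FPKM in the knockdown. With USP10, 10 genes of this cluster were kept. At least 2-fold higher were 2, again Serpinb6b and Serpinb9b, and 2 were lower, Serpinb6c and Serpinb9g, beside 9.70% and 10.0% of all genes. Against the other day 6 control the same 2 of 11 kept were higher and 5 lower, beside 17.5% and 15.5% of all genes. Of 8 genes kept at day 8, 0 were at least 2-fold higher and 4 lower, beside 7.89% and 10.0% of all genes. On chromosome 1, Serpinb7 and Serpinb8 were the 2 genes kept at day 6, and both were at least 2-fold higher in the knockdown and with USP10.

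**Figure D4:**
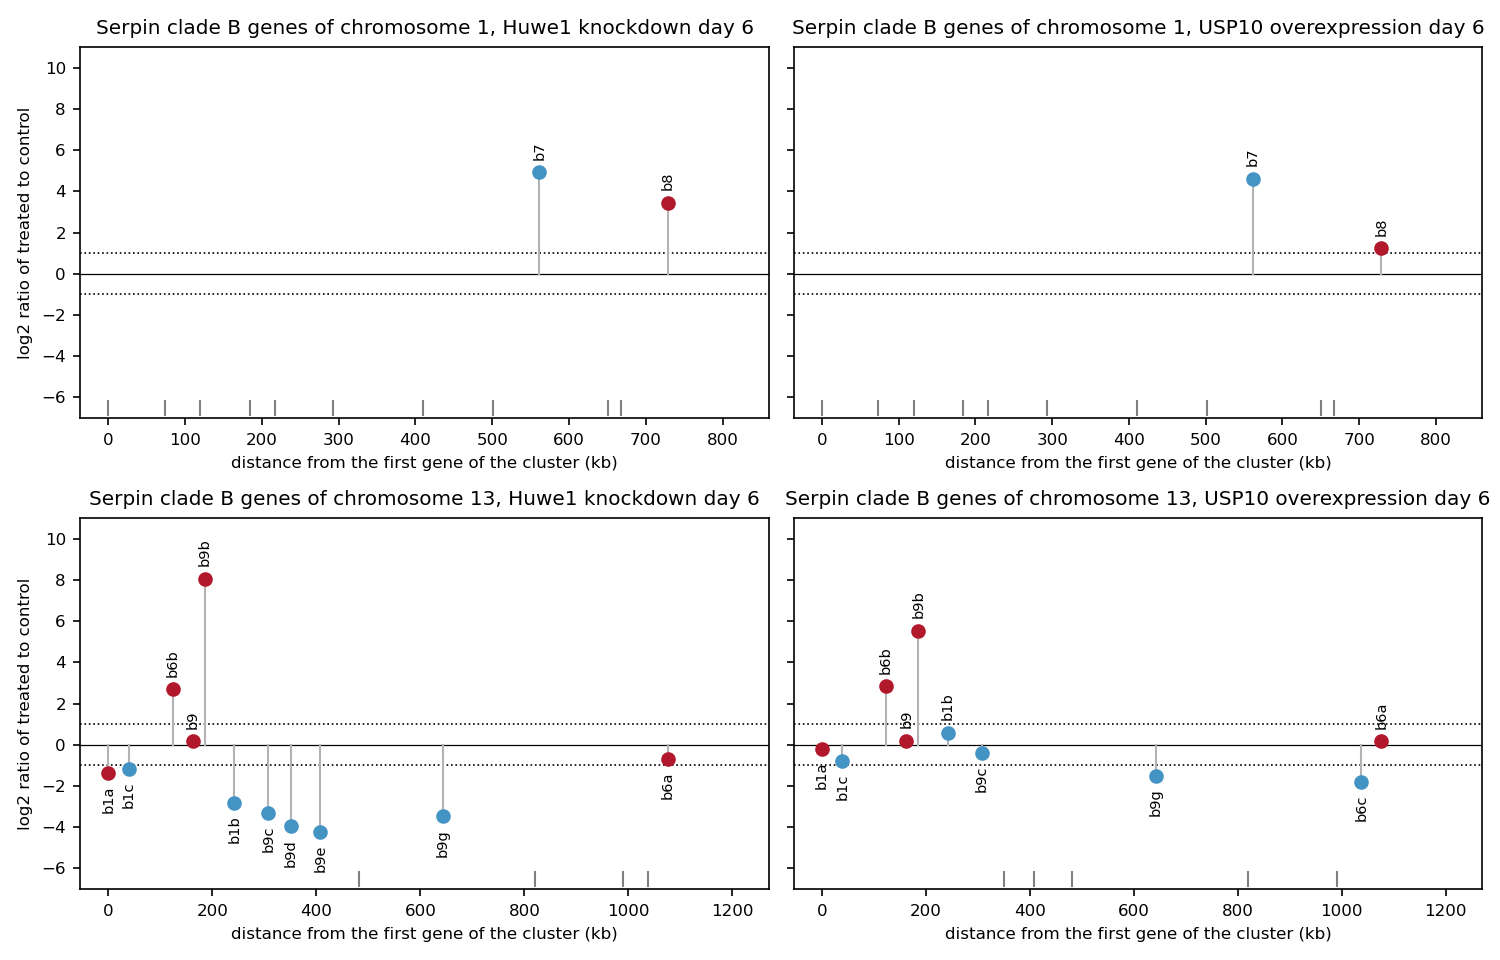
Log2 ratio of treated to control FPKM for clade B genes against their distance from the first gene of their cluster, for Huwe1 knockdown and USP10 overexpression at day 6; names are without the Serpin prefix, the 9 genes described are red and other clade B genes blue, ticks at the bottom mark genes under 1 FPKM in both columns, and dotted lines mark 2-fold. On chromosome 13 Serpinb9b (8.04 and 5.54) and Serpinb6b (2.69 and 2.83) stand above genes near or under 0.

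Among the other 54 serpins, 42 were under 1 FPKM in every column and 16 of these were listed at 0 throughout, and 5 reached 10 FPKM. Serpinb7, known as megsin, lies near Serpinb2 and was at 3.83 FPKM in the day 6 control and at 115.8 FPKM in the knockdown, and at 3.06 and 75.3 FPKM in the USP10 table. At day 8 it was at 5.12 FPKM in the control and at 0.118 FPKM in the knockdown, so that, like Serpinb6b, it was higher at day 6 and lower at day 8. Serping1, the inhibitor of complement C1, was at 6.48 FPKM in the day 6 control and at 0.189 FPKM in the knockdown, and at 11.7 and 0.102 FPKM with USP10, but at 11.3 and 48.2 FPKM in day 8 myotubes. Serpine2, protease nexin 1, had log2 ratios of -3.33 at day 6, -4.09 with USP10 and 2.50 at day 8. Of the 10 other serpins kept at day 6, 2 were at least 2-fold higher and 8 lower, beside 17.6% and 13.4% of all genes.

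The proteases that serpins act on were followed by lists written by hand. Of 9 genes of the plasminogen and coagulation system, 6 were kept at day 6, and all 6 were higher in the knockdown by 2-fold or more, with a median log2 ratio of 3.79, beside 17.6% of all genes. Against the control of the USP10 table there were 4 of 6 higher by 2-fold or more, Plau, Plat, Plaur and Thbd. F3 and F2r were not, the median was 1.497, and 12.95% of all genes were higher. Plau, the urokinase gene whose product Serpinb2 inhibits, was at 4.44 FPKM in the day 6 control and at 66.6 FPKM in the knockdown. At day 0 Plau was at 111 FPKM in day 0 control cells and 64.3 FPKM in the knockdown, where Serpinb2 was higher. Plat, the tissue plasminogen activator, was at 4.31 and 41.7 FPKM at day 6, and F2r, a thrombin receptor, at 18.9 and 107.7 FPKM. At day 0, 1 gene of the 6 kept was at least 2-fold higher and 0 lower, beside 1.90% and 1.69% of all genes. At day 8 this was 1 higher and 2 lower of 5 kept, beside 7.89% and 10.0%. With USP10 it was 2 higher and 0 lower of 6 kept, beside 9.70% and 10.0%. Against the other day 6 control 6 of 6 were higher with USP10 and 0 lower, beside 17.5% and 15.5% of all genes.

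The granzymes and leukocyte proteases that Serpinb9, Serpinb6b and Serpinb1a are known to inhibit were nearly absent. Of 13 genes on the list, at most 2 were kept in any comparison, and between 7 and 10 were listed at 0 in each column. Gzma and Gzmb were at 0 in all 8. Gzmm, the gene for the protease inhibited by Serpinb9b, was at 0.985 FPKM in the day 6 control and at 0.608 FPKM in the knockdown. The highest value belonged to Mcpt8, a mast cell protease relative, at 9.75 FPKM in the day 8 control and at 0.182 FPKM in the knockdown. Leukocyte markers were low as well, 8 of 9 listed genes being in the table with summed levels between 0.842 and 4.70 FPKM, most of it Cd68. Of the lysosomal cathepsins, Ctsl was at 558 and 557 FPKM at day 6 and Ctsd at 649 and 299 FPKM, while Ctsk and Ctss stayed under 1 FPKM in all columns. Of the 10 cathepsin and furin genes, 7 were kept at day 6, 1 at least 2-fold higher and 2 lower, beside 17.6% and 13.4% of all genes.

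Of the collagen genes and collagen-folding enzymes that work with Serpinh1, 16 were in the table and kept in every comparison. At day 6, 8 were higher in the knockdown by 2-fold or more and 0 lower, beside 17.6% and 13.4% of all genes. The median log2 ratio was 1.13, while Serpinh1 had 0.21. The count of 8 rests on the control. Against the control of the USP10 table there were 2 higher, Col1a2 and Col3a1, and 2 lower, P4ha3 and Plod2, with a median of 0.21. The shares of all genes were then 12.95% higher and 9.92% lower. Col1a2, a chain of type I collagen, was at 42.1 FPKM in the day 6 control and at 409 FPKM in the knockdown, and Sparc, a collagen-binding matrix protein, at 601 and 2144 FPKM. At day 0, 0 of 16 passed 2-fold in either direction, where 1.90% of all genes were higher and 1.69% lower. The median was -0.20, beside -0.78 for Serpinh1. At day 8 1 was higher and 0 lower by 2-fold or more, beside 7.89% and 10.0% of all genes. With USP10 1 was higher and 1 lower, beside 9.70% and 10.0%. Against the other day 6 control 9 of 16 were higher with USP10 and 0 lower, beside 17.5% and 15.5% of all genes.

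Markers of differentiated muscle and of mesenchymal cells moved in the day 6 tables in which Serpinb9b, Serpinb8 and Serpinb6b were higher. The 8 muscle markers summed to 12806 FPKM in the day 6 control and to 2880 FPKM in the knockdown. Of these, 6 were at least 2-fold lower, beside 13.4% of all genes. In the USP10 table the sums were 6071 and 3298 FPKM, with 4 of 8 at least 2-fold lower, beside 10.0% of all genes. Against the other day 6 control 7 of 8 were lower with USP10, beside 15.5% of all genes. The 8 fibroblast and mesenchymal markers summed to 120.2 FPKM in the day 6 control and to 4415 FPKM in the knockdown. All 7 genes kept were at least 2-fold higher, beside 17.6% of all genes. Against the control of the USP10 table, 5 of 8 muscle markers were lower and 1 higher, and 6 of 7 mesenchymal markers higher. The shares of all genes were then 9.92% lower and 12.95% higher. With USP10 the mesenchymal markers summed to 455 and 4043 FPKM, with 5 of 7 at least 2-fold higher, beside 9.70% of all genes. Against the other day 6 control 7 of 7 were higher with USP10, beside 17.5% of all genes. Most of both treated sums was Dcn, at 2987 FPKM in the day 6 knockdown and 3037 FPKM with USP10. In day 8 myotubes the muscle sum was also lower, 10839 against 2837 FPKM, while the mesenchymal sum was 439 and 738 FPKM and none of the 9 serpins was at least 2-fold higher. Of the 6 mesenchymal markers kept at day 8, 2 were at least 2-fold higher and 1 lower, beside 7.89% and 10.0% of all genes. At day 0, where Serpinb2 and Serpinb9b were higher, the muscle sum was 426 and 221 FPKM and the mesenchymal sum 227 and 168 FPKM. Most of this mesenchymal sum was Col3a1, at 169.6 and 106.1 FPKM. Of the 6 mesenchymal markers kept at day 0, 1 was at least 2-fold higher, Dcn, at 1.27 and 4.42 FPKM. None was at least 2-fold lower, and the shares of all genes were 1.90% higher and 1.69% lower. Among endothelial markers, Pecam1 stayed at 0.346 FPKM or less, while Cdh5 was at 13.5 and 11.2 FPKM at day 0 and at 0.0241 FPKM in the day 6 control and at 6.83 FPKM in the knockdown. Of the 6 endothelial markers, 2 were kept at day 6, Cdh5 and Tek, both at least 2-fold higher, beside 17.6% of all genes. Both were also higher against the control of the USP10 table, beside 12.95% of all genes. With USP10, 1 was kept, Cdh5, and it was at least 2-fold higher, beside 9.70% of all genes. The part of these marker changes in the serpin ratios was not tested.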

How the data were processed

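RNA was measured by directional mRNA-seq in 10 libraries, grouped by their labels. By the study's methods the authors mapped reads with Tophat and compared groups with Cuffdiff. The submitters' processing notes name Bowtie2, Cuffdiff and mm10, with versions not given in the sources used here. The deposited values are FPKM, normalized by the authors within each of 4 tables, with the 2 knockdown libraries of a Huwe1 table pooled. The deposited tables also hold the authors' fold changes, test statistics, p-values and q-values, which were not used. With 1 value per condition no test was possible.

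Log2 ratios were computed with 0.01 FPKM added, over genes that reached 1 FPKM in either column, and counted at 2-fold. Values set across tables are descriptions. Listed starts were raised by 1 to count from 1, after which the starts of Serpinb2, Serpinb8, Serpinb9 and Serpinb9b equalled their RefSeq transcript starts. Depth was estimated from the lowest FPKM steps of genes with 1 transcript of at least 1500 bases. It limits precision by counting error, which is largest under 1 FPKM, and counting error only is covered. Promoters came from RefSeq (GRCm38.p6), and shared 50-base windows and open reading frames from GENCODE transcripts. Alternatives were other pseudocounts, filters, centring, a 1.5-fold limit and, added after the data were seen, the day 6 control of the other table. Members and lists were chosen with earlier results of these data known. The text names all members, other serpins with at least 10 FPKM in a column apart from 1 that is not reported here, or outside that rule single genes of a cluster or list chosen after their values were seen, and of each list mainly its 3 most abundant genes. On simulated data 200 of 200 changed genes were recovered in every comparison, with 0 unchanged genes counted over 7983 to 8407 genes. Simulated depths came within 7.21%. These values check the computing steps only, and they depend on the settings of the simulation, which are not given here. How many genes of the real columns pass 2-fold through spread between replicates was not tested, since that spread is unknown. Python 3.11.15, numpy 2.4.6, pandas 2.3.3, Biopython 1.88 and matplotlib 3.10.9 were used.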

Additional observations from a re-analysis of the deposited data

Results flagged for a closer look

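Among the serpins reported here and kept in both comparisons, 4 turned between the Huwe1 knockdowns of day 6 and day 8. Their log2 ratios were past 2-fold in one direction at day 6 and past 2-fold in the other in day 8 myotubes. The difference, day 6 minus day 8 on the log2 scale, was 5.18 for Serpinb6b and 10.24 for Serpinb7, which were higher at day 6 and lower at day 8. It was -5.84 for Serpine2 and -7.12 for Serping1, which were lower at day 6 and higher at day 8. Serpinb9b also turned, with log2 ratios of 8.04 at day 6 and -2.13 at day 8. It is not among the 4, since both of its day 8 values lay under 1 FPKM. Each side is 1 pair of columns, with depletion in formed myotubes rather than in myoblasts, other hairpins and another kind of control at day 8. The differences were therefore not tested, and day, stage of depletion, hairpins and control cannot be told apart.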

How the results depend on the processing

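Of the member counts under alternatives, 50 stayed within 1.5 times the reported count and 10 moved. With a 1.5-fold limit, day 0 had 4 members higher and 1 lower, beside 4.72% and 5.52% of all genes kept. There were 2 lower at day 6, 3 in day 8 myotubes and 1 with USP10, beside 23.5%, 18.2% and 16.8%. With 1 FPKM required in both columns, 1 member was higher at day 6 and 0 lower in day 8 myotubes, since fewer genes were kept. The shares of all genes were then 12.5% and 7.30%. In day 8 myotubes a minimum of 5 FPKM also gave 0 lower, and no filter gave 2, beside 8.52% and 15.5%. Exchanging the day 6 controls, an alternative chosen after seeing the data, gave 1 lower with USP10, beside 15.5% of all genes. It turned the Serpinb1a ratio in the day 6 knockdown from -1.35 to 0.29, and the cause was not tested. It also moved Serpinb1a with USP10 to -1.83. Of the 16 member ratios under exchanged controls, 8 turned direction and 10 moved by over 1.5-fold. Under the alternatives other than this, 0 of 181 turned and 5 moved by over 1.5-fold, all with 1 FPKM added. No paired analysis was possible because the tables pool the knockdown libraries into 1 column. Leaving out a replicate was not possible for the same reason. Depth limits ratios against values under 1 FPKM.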
